A study of Mus musculus with 32 samples.

Results

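The unfolded protein response and the integrated stress response were followed through 33 genes in cortical microglia of the mouse after a stab wound. The genes were taken by symbol from a list of chaperones, stress sensors, transcription factors, their targets and factors of protein disposal. The rule uses no measured value, but the list was drawn up with earlier results of these data known. All 33 were among the 28597 genes with enough counts to test, of 55385 gene identifiers in the count table. Polyadenylated RNA came from EYFP+ microglia sorted by flow cytometry from the site of a cortical stab wound (injured side) or from the matching site in the opposite, non-injured hemisphere. Groups were the injured side at days 1, 4, 7 and 14 in females and in males, each set against the non-injured side of the same day and sex. All mice on both sides were adult C57BL/6 heterozygous for Cx3cr1CreER, with a tamoxifen-inducible recombinase under the fractalkine receptor gene. The fluorescent protein depends on this locus. All received tamoxifen at 180 mg/kg per day for 5 days when 8 to 10 weeks old, and both hemispheres belonged to wounded mice, with no unwounded mice among the groups used here. Since Cx3cr1 is also active in monocytes and in macrophages at the brain's borders, the fluorescent gate can hold such cells.

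Each combination of day, sex and side was deposited as 2 columns that differed by little more than counting noise, with a median chi-square per gene of 0.475 to 0.639 against 0.455 for counting noise alone. The series' description calls the 2 columns biological replicates. Because of their small difference they were summed and counted as 1 library, which gave 16 libraries. The injured and non-injured libraries of a day and sex form 1 of 8 pairs. Whether libraries came from separate animals is not stated in the labels, so each p-value measures the spread between these libraries only. Totals ran from 20864031 to 55378880 counts. The fewest genes were detected in the day 14 female libraries, with 14720 on the injured and 14772 on the non-injured side, against 18718 to 40940 elsewhere. Mitochondrial transcripts made up 0.697% to 6.89% of counts in injured libraries and 1.16% to 25.7% in non-injured ones, with the top value in the day 4 male non-injured library. In a bulk sample, fewer cells of a type and less RNA per cell cannot be told apart.

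Proteins bound for the membrane or for secretion fold in the endoplasmic reticulum (ER). When unfolded chains build up there, the sensors IRE1 (Ern1), ATF6 and PERK (Eif2ak3) release a programme that raises chaperones and folding enzymes, slows translation and sends misfolded chains for degradation. PERK and related kinases act through phosphorylation of the initiation factor eIF2, which favours translation of ATF4, and ATF4 with CHOP (Ddit3) drives the targets of the integrated stress response. Microglia secrete cytokines and complement and carry many surface receptors, so their folding load depends on their state.

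Over the mean of the 4 days, 14 of the 33 genes were higher on the injured side and 0 were lower. Calls are from edgeR's quasi-likelihood test, at a p under 0.05 after Benjamini-Hochberg adjustment over every gene tested. Among all genes tested, 7.76% were called higher and 7.96% lower. Among the 9025 genes that averaged 10 CPM or more (CPM are counts scaled to 1000000 per library), 20.5% were called higher. Most members called belonged to the folding machinery. There 13 of 15 chaperones, co-chaperones, disulfide isomerases and soluble stress factors were called, with a median log2 change (injured over non-injured) of 1.03. Of the other 18 genes, the sensors, transcription factors, stress targets and degradation factors, only Trib3 was called, and their median was 0.41. The 5 targets of the integrated stress response among them had a higher median of 1.72, with wide errors. Chac1 at log2 1.80 (SE 0.71) and Asns at 1.72 (SE 0.60) exceeded every folding factor but were not called by edgeR, while Sesn2 and Ppp1r15a stood at 0.23 and 0.06. The median of all genes at 10 CPM or more was 0.20 on the same scale, and each of the 14 called genes lay above the median of these genes under all 17 ways of processing. Of the 14 genes, 11 kept their call whichever of the 8 pairs was left out, and Hsp90b1, Hyou1 and Pdia4 did not. By limma on log2(TPM + 1), where the median of genes at 10 CPM or more was -0.27, 5 members were called higher and 1, Herpud1, lower. Of the 14 genes this fit called 4, namely Creld2, Manf, Sdf2l1 and Trib3, so that 3 of the 15 folding factors were called. A fit that did not pair the libraries of a day and sex called 4 of the 14, namely Calr, Creld2, P4hb and Trib3, and no other member.

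**Figure D1:**
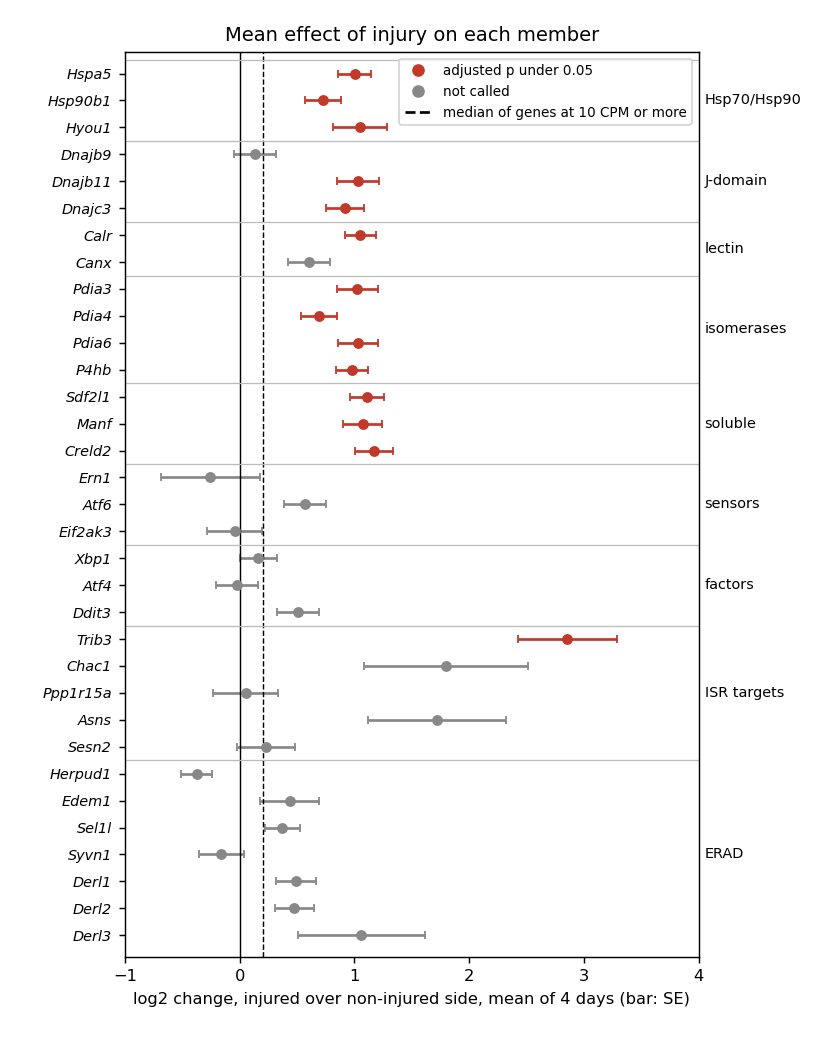
Log2 change of each of the 33 genes on the injured over the non-injured side, as the mean of 4 days with its standard error from edgeR (8 pairs); red points had an adjusted p under 0.05, and the dashed line is the median of the 9025 genes at 10 CPM or more. Of the 15 folding factors at the top, 13 are red and lie between 0.69 and 1.17, while Trib3 at 2.86 is the only red point among the 18 genes beneath them.

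Hspa5 encodes BiP, the Hsp70 chaperone of the ER that holds unfolded chains and binds the luminal parts of the stress sensors. Its level ran from 548 to 5852 CPM with a median of 2010 in the 8 injured libraries, and from 352 to 1898 CPM with a median of 1004 in the 8 non-injured ones. The ranges overlapped across days, but within a pair the injured library was the higher in 7 of 8, the exception being the day 14 female pair. The mean log2 change was 1.00 (SE 0.14, adjusted p = 0.0022 by edgeR). At day 1, 5852 CPM in the female and 2624 CPM in the male injured library stood against 1898 and 889 CPM in the female and male non-injured ones. Both injured libraries lay above both non-injured ones that day, and the change was 3.02-fold (log2 1.59, SE 0.29, adjusted p = 0.0433 by edgeR). The other chaperones of this kind were called in the mean as well. Hsp90b1, which encodes GRP94, a folding factor for Toll-like receptors and integrins, had a log2 change of 0.73 (SE 0.16, adjusted p = 0.0153 by edgeR). Hyou1, the nucleotide exchange factor of BiP, had a log2 change of 1.05 (SE 0.23, adjusted p = 0.0163 by edgeR) at lower levels of 4.83 to 129 CPM in injured and 4.82 to 49.6 CPM in non-injured libraries.

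The J-domain co-chaperones hand unfolded chains to BiP and stimulate its ATPase. Dnajb11 (ERdj3) had 69.1 to 460 CPM with a median of 203 CPM in injured libraries, against 37.9 to 182 CPM with a median of 96.5 CPM in non-injured ones. The injured library was the higher in all 8 pairs, by 0.02 log2 in the day 14 female pair and by 0.60 or more in the others. The mean log2 change was 1.03 (SE 0.18, adjusted p = 0.0056 by edgeR). Of all genes tested, 5.11% were higher in 8 of 8 pairs, and of those at 10 CPM or more, 14.1%. Dnajc3 (P58IPK) had a log2 change of 0.92 (SE 0.17, adjusted p = 0.0065 by edgeR) and was likewise higher in 8 of 8 pairs. Dnajb9 (ERdj4), which binds IRE1 and is a well-known target of spliced XBP1, was not called, at log2 0.13 (SE 0.18, adjusted p = 0.739 by edgeR) and higher in 5 of 8 pairs.

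Among the lectin chaperones, which hold glycoproteins until they are folded, soluble Calr (calreticulin) had 288 to 1332 CPM with a median of 923 CPM in injured libraries, against 216 to 535 CPM with a median of 312 CPM in non-injured ones. It was higher on the injured side in 8 of 8 pairs, and its mean change was 2.07-fold (log2 1.05, SE 0.14, adjusted p = 0.0015 by edgeR). At day 4 it had 1332 CPM in the female and 999 CPM in the male injured library, against 416 and 304 CPM in the female and male non-injured ones. The sides did not overlap (log2 1.70, SE 0.28, adjusted p = 0.0250 by edgeR). At day 14 the pairs differed little, with 288 and 316 CPM in the female and male injured libraries against 271 and 265 CPM in the female and male non-injured ones. The membrane-bound partner Canx (calnexin) was not called in the mean (log2 0.61, SE 0.18, adjusted p = 0.0540 by edgeR). Its levels were widely spread, with 6019 CPM in the injured and 8699 CPM in the non-injured day 14 female library. The other libraries held 537 to 2442 CPM on the injured side and 379 to 911 CPM on the non-injured side.

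The 4 disulfide isomerases, which form and rearrange disulfide bonds in folding chains, were all called in the mean. Pdia3 (ERp57), which works with calreticulin and calnexin, had 741 to 2958 CPM with a median of 1884 CPM in injured libraries, against 348 to 1684 CPM with a median of 830 CPM in non-injured ones. Its mean log2 change was 1.03 (SE 0.18, adjusted p = 0.0051 by edgeR). Pdia6 had 200 to 1276 CPM with a median of 641 CPM in injured libraries, against 110 to 579 CPM with a median of 310 CPM in non-injured ones. The log2 change over days was 1.03 (SE 0.17, adjusted p = 0.0046 by edgeR). P4hb, the classical protein disulfide isomerase, had 249 to 1140 CPM with a median of 608 CPM in injured libraries, against 205 to 505 CPM with a median of 251 CPM in non-injured ones. In the mean the log2 change was 0.98 (SE 0.14, adjusted p = 0.0021 by edgeR). Ranges overlapped for each of these genes across days. Within pairs P4hb was higher on the injured side in 8 of 8, while Pdia3 and Pdia6 were higher in 7 of 8, the exception again being the day 14 female pair. At day 4 Pdia6 had 895 and 674 CPM in the female and male injured libraries, against 317 and 167 CPM in the female and male non-injured ones. That day's log2 change was 1.75 (SE 0.35, adjusted p = 0.0442 by edgeR). P4hb that day had 1074 and 633 CPM in the female and male injured libraries, against 386 and 221 CPM in the female and male non-injured ones. The log2 change at that day was 1.5 (SE 0.28, adjusted p = 0.0364 by edgeR). Neither gene overlapped between sides at day 4. Pdia4 had the least change of the 4, at log2 0.69 (SE 0.16, adjusted p = 0.0166 by edgeR).

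Sdf2l1, Manf and Creld2 encode small soluble ER proteins that are strongly raised by ER stress. Sdf2l1, which forms a complex with ERdj3 and BiP, had 92.7 to 778 CPM with a median of 311 CPM in injured libraries, against 72.3 to 363 CPM with a median of 114 CPM in non-injured ones. Its mean log2 change was 1.11 (SE 0.15, adjusted p = 0.0017 by edgeR). Manf, a BiP-binding factor that is also secreted and has neurotrophic activity, had 45.8 to 580 CPM with a median of 136 CPM in injured libraries, against 46.8 to 131 CPM with a median of 69.7 CPM in non-injured ones. The log2 change over days was 1.07 (SE 0.17, adjusted p = 0.0033 by edgeR). Creld2 had 31.9 to 558 CPM with a median of 121 CPM in injured libraries, against 27.6 to 120 CPM with a median of 45.4 CPM in non-injured ones. In the mean the log2 change was 1.17 (SE 0.17, adjusted p = 0.0022 by edgeR). Sdf2l1 and Manf were higher on the injured side in 6 of 8 pairs, both day 14 pairs being the exceptions, and Creld2 in 8 of 8. At day 1 Manf had 580 and 191 CPM in the female and male injured libraries, against 117 and 57.8 CPM in the female and male non-injured ones. That day's log2 change was 2.02 (SE 0.35, adjusted p = 0.0353 by edgeR). Creld2 that day had 558 and 169 CPM in the female and male injured libraries, against 120 and 45.6 CPM in the female and male non-injured ones. The log2 change at that day was 2.06 (SE 0.34, adjusted p = 0.0321 by edgeR). For each gene, both injured libraries lay above both non-injured ones. At day 4 Sdf2l1 had 344 and 335 CPM in the female and male injured libraries, against 89.96 and 72.3 CPM in the female and male non-injured ones. This was a 4.21-fold change (log2 2.07, SE 0.31, adjusted p = 0.0204 by edgeR). Creld2 at day 4 had 135 and 159 CPM in the female and male injured libraries, against 50.8 and 45.2 CPM in the female and male non-injured ones. That day's log2 change was 1.61 (SE 0.34, adjusted p = 0.0479 by edgeR). Manf overlaps Dcaf1 and Rbm15b, at 8.29 and 9.83 CPM on average against 140 CPM for Manf, and the libraries did not keep the strand.

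**Figure D2:**
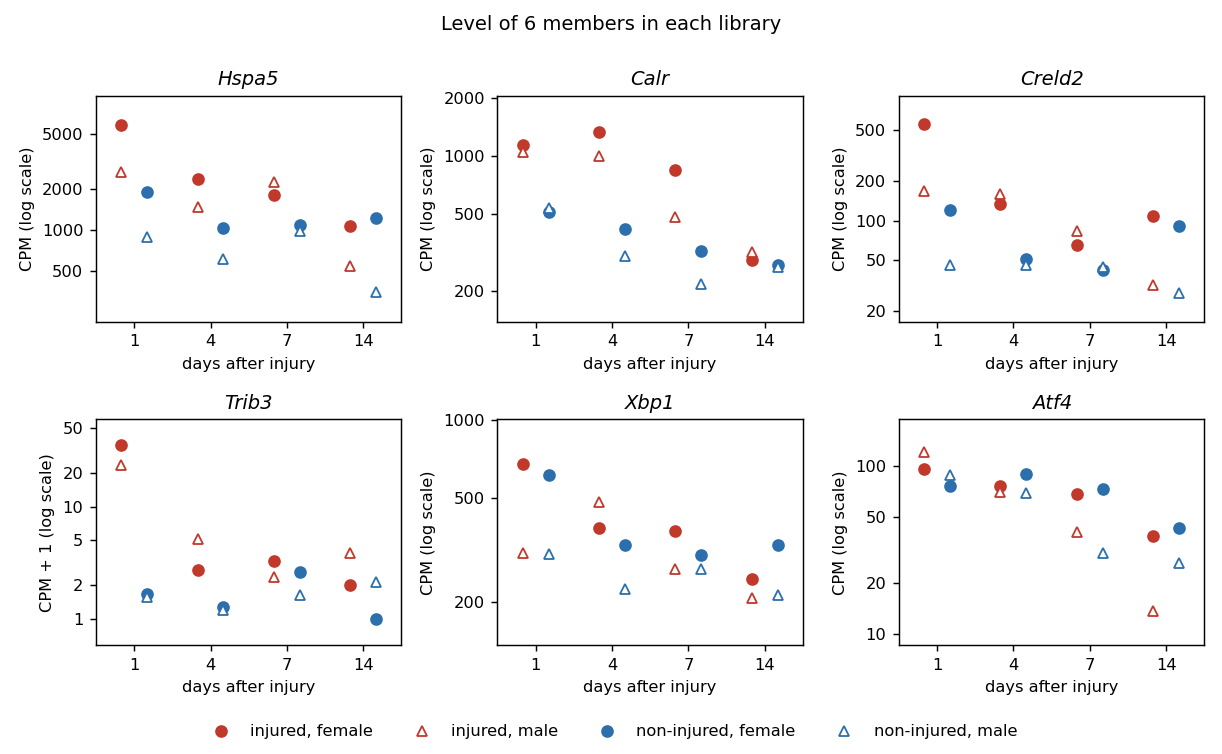
CPM of Hspa5, Calr, Creld2, Trib3 (with 1 added), Xbp1 and Atf4 on log axes in each of the 16 libraries, by day, with injured libraries in red left of non-injured libraries in blue, females as filled circles and males as open triangles. For Hspa5, Calr, Creld2 and Trib3 both red points stand above both blue ones at days 1 and 4, whereas they do so at 1 of the 4 days for Xbp1 (day 4) and for Atf4 (day 1).

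Promoters of ER folding factors are known for the ER stress response element (ERSE), to which ATF6 and the factor NF-Y bind. RefSeq promoter windows (GRCm38.p6, 250 bases before to 50 after the start) were searched on both strands for its letters, CCAAT, 9 bases of any kind and CCACG. A window was at hand for 29 of the 33 genes. Of these 29, 9 held an ERSE (Calr, Canx, Creld2, Derl3, Dnajc3, Hsp90b1, Hspa5, Pdia6 and Syvn1), against 39 of all 32851 windows (0.119%). Matches lay in 6 of 12 genes called in the mean and in 3 of 17 that were not. The genes were listed as parts of this response, whose promoters are known for the element. The contrast with all windows was therefore largely set by the list. The variant ERSE-II (ATTGG, 1 base of any kind and CCACG) was in Dnajb11 and Herpud1, and in 0.0365% of all windows. TGACGTG, the core bound by XBP1 and ATF6, was in Hspa5 alone, and in 2.01% of all windows. TGATGNAA, the core of the element bound by C/EBP and ATF4, was in Asns, Chac1, Herpud1 and Trib3, and in 3.97% of all windows. The 250 bases before the start follow for 4 genes, those with an ERSE among the 8 with the smallest p, with every match in capitals. Hspa5 is at chr2:34771840-34772089 (+) with its ERSE at positions -65 to -47 from the start and TGACGTG at -157 to -151. Calr is at chr8:84846932-84847181 (-) with its ERSE at -162 to -144, and Creld2 is at chr15:88819396-88819645 (+) with its ERSE at -126 to -108. Pdia6 is at chr12:17266339-17266588 (+) with its ERSE at -98 to -80. The ERSE of Calr and that of Creld2 read on the opposite strand, so the printed strand shows their reverse complement. For Trib3 the 30 bases around its match, which also reads on the opposite strand, are shown (chr2:152344028-152344057, -), with the match at positions 15 to 22 after the start. A match is a run of letters and not a measured binding site, and a window with none says nothing of the factor. Sdf2l1 and P4hb held none of these letters.
Hspa5: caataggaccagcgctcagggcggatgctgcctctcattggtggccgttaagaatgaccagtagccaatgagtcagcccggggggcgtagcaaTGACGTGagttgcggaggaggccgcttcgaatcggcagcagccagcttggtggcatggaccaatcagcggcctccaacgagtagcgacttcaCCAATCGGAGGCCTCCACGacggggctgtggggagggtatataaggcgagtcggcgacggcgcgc
Calr: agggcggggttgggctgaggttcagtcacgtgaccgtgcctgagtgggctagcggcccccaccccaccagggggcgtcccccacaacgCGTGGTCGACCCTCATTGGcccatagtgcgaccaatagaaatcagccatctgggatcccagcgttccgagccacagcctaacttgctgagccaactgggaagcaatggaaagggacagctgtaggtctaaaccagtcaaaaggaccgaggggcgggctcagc
Creld2: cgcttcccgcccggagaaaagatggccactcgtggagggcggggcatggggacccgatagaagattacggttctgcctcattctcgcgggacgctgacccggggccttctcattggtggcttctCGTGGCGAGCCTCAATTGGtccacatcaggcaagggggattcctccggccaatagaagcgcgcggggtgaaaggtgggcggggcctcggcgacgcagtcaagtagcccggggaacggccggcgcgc
Pdia6: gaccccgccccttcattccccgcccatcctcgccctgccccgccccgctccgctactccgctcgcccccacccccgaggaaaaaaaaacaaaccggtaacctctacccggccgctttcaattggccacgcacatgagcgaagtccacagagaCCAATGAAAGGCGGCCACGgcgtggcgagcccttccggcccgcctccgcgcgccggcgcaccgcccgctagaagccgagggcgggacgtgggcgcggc
Trib3: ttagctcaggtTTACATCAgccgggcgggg

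The 3 sensors were not called in the mean, at any day or in any other comparison by edgeR, and 1 of them, Atf6, had an unadjusted p under 0.05 in the mean. By DESeq2 none was called in the mean, Atf6 was called at day 1 and Ern1 at day 14. Atf6, the membrane-bound factor that is cut free in the Golgi, had 20.6 to 100.04 CPM with a median of 59.9 CPM in injured libraries, against 22.3 to 75.5 CPM with a median of 37.4 CPM in non-injured ones. Its mean log2 change was 0.57 (SE 0.18, adjusted p = 0.0652 by edgeR). Ern1, the kinase and nuclease that splices Xbp1, had a log2 change of -0.25 (SE 0.43), with 0 CPM in the day 14 female injured library. Eif2ak3, the PERK kinase, had 7.96 to 20.8 CPM in injured and 7.68 to 26.5 CPM in non-injured libraries, and its mean log2 change was -0.04 (SE 0.24). At day 1 both Eif2ak3 values were lower in the injured libraries, 7.96 and 14.3 CPM in the female and male injured ones against 14.5 and 26.5 CPM in the female and male non-injured ones. The adjusted p was 0.403 by edgeR.

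The transcription factors were likewise not called in the mean by edgeR or by DESeq2, and 1 of the 3, Ddit3, had an unadjusted p under 0.05. Xbp1 had 206 to 676 CPM with a median of 341 CPM in injured libraries, against 211 to 613 CPM with a median of 305 CPM in non-injured ones. The log2 change over days was 0.16 (SE 0.16, adjusted p = 0.599 by edgeR). Counts per gene do not separate spliced from unspliced Xbp1, which is the step that turns it on. Atf4 had 13.6 to 122 CPM with a median of 69.3 CPM in injured libraries, against 26.3 to 90.1 CPM with a median of 71.1 CPM in non-injured ones. In the mean the log2 change was -0.02 (SE 0.19). Its protein is set largely by translation, which RNA counts do not measure. Ddit3, which encodes CHOP, was higher on the injured side in 8 of 8 pairs. It had 19.9 to 88.3 CPM in injured and 14.1 to 51.6 CPM in non-injured libraries (log2 0.51, SE 0.18, adjusted p = 0.0979 by edgeR). Ddit3 overlaps Mars on the opposite strand, which averaged 85.3 CPM against 40.7 CPM for Ddit3, and reads from the overlap cannot be told apart in unstranded libraries.

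**Figure D3:**
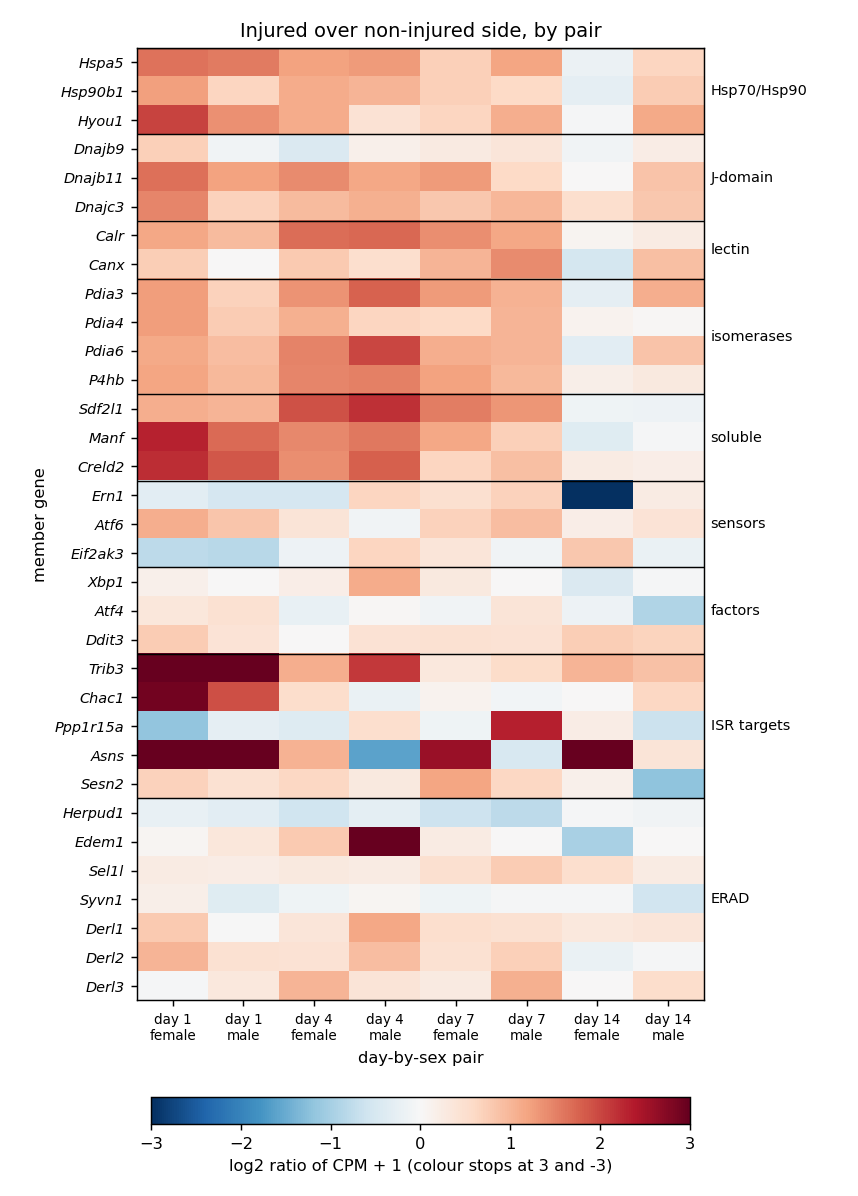
Log2 ratio of CPM + 1, injured over non-injured, for 33 genes (down the page, by role) in each of the 8 day-by-sex pairs (across), with red for higher on the injured side, blue for lower, and colours that stop at 3 and -3. The folding factors in the upper 15 lines are red in most pairs of days 1, 4 and 7 and pale in the day 14 female pair, Trib3, Chac1 and Asns are dark red at day 1, and Herpud1 is pale blue or white in every pair.

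Of the 5 targets and feedback genes of the integrated stress response, Trib3, a pseudokinase induced by ATF4 and CHOP, was called. At day 1 it had 34.6 and 22.3 CPM in the female and male injured libraries, against 0.673 and 0.563 CPM in the female and male non-injured ones, from 1042 and 907 counts in the injured libraries against 25 and 20 in the non-injured ones. The sides were far apart, and the fitted change was log2 5.50 (SE 0.73, adjusted p = 0.0124 by edgeR). From day 4 to day 14 it lay between 1.02 and 4.19 CPM in injured libraries and between 0 and 1.60 CPM in non-injured ones. It was higher on the injured side in 8 of 8 pairs, at a mean log2 change of 2.86 (SE 0.43, adjusted p = 0.0018 by edgeR). Chac1, which degrades glutathione, had 9.19 and 6.45 CPM in the female and male injured libraries of day 1, against 0.377 and 0.958 CPM in the female and male non-injured ones. It was not called (log2 3.54, SE 0.76, adjusted p = 0.0748 by edgeR). Asns, which makes asparagine, had 101 and 38.5 CPM in the female and male injured libraries of day 1, against 7.27 and 1.92 CPM in the female and male non-injured ones. The log2 change at that day was 4.02 (SE 1.20, adjusted p = 0.159 by edgeR). Asns was uneven later, with 13.2 CPM in the day 4 male injured library against 42.2 CPM in its non-injured partner, and 20.3 CPM in the day 14 female injured library against 0.0822 CPM in its partner. Chac1 and Asns were called at day 1 and in the mean by DESeq2. Ppp1r15a, the phosphatase subunit GADD34 that reverses eIF2 phosphorylation, had a mean log2 change of 0.06 (SE 0.28) and was higher on the injured side in 3 of 8 pairs. Sesn2, a stress-induced inhibitor of mTORC1, had a mean log2 change of 0.23 (SE 0.25).

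None of the 7 genes of ER-associated degradation (ERAD), which extracts misfolded chains for the proteasome, was called in the mean by edgeR. An unadjusted p under 0.05 was reached by 4, with 3 higher and 1 lower. Herpud1, a membrane scaffold of the degradation complex and a strong stress target, was lower on the injured side in 8 of 8 pairs, as were 6.49% of genes at 10 CPM or more. It had 124 to 1851 CPM with a median of 323 CPM in injured libraries, against 152 to 1892 CPM with a median of 516 CPM in non-injured ones. Its mean log2 change was -0.37 (SE 0.13, adjusted p = 0.0999 by edgeR), and DESeq2 and limma on TPM called it lower. Sel1l, the adaptor of the ligase, was higher on the injured side in 8 of 8 pairs at log2 0.37 (SE 0.15, adjusted p = 0.131 by edgeR). The ligase Syvn1 (HRD1) stood at log2 -0.16 (SE 0.19). The channel-forming derlins Derl1 and Derl2 stood at log2 0.49 and 0.48 (adjusted p = 0.0904 and 0.0930 by edgeR), and Derl3 did not exceed 2.83 CPM in any injured or 2.16 CPM in any non-injured library. Edem1, which passes mannose-trimmed glycoproteins on, had 433 CPM in the day 4 male injured library against 52.5 CPM in its non-injured partner, and its mean log2 change was 0.44 (SE 0.26). Syvn1 and Derl2 overlap Mrpl49 (30.3 CPM) and Mis12 (39.1 CPM) on the opposite strand.

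Levels between genes were set side by side in TPM (transcripts scaled to 1000000 per library), which accounts for transcript length. Hspa5 was the most abundant of the 33 at a median of 768 TPM in injured and 724 TPM in non-injured libraries. Pdia3 came next on the injured side at 752 TPM in injured and 601 TPM in non-injured libraries, and then Calr at 445 TPM in injured and 375 TPM in non-injured ones. Hyou1, a partner of BiP, was far lower at 8.48 TPM in injured and 6.44 TPM in non-injured libraries. Hsp90b1 and Pdia4, though called higher in the mean, had lower medians in injured libraries. These were 379 and 144 TPM in injured against 462 and 152 TPM in non-injured ones. The other called members had the higher median in injured libraries, Dnajb11 and Dnajc3 by little. These medians are not paired by day and sex, and neither are the CPM medians above. For Hspa5 the CPM medians were 2010 in injured and 1004 in non-injured libraries, further apart than its TPM medians. TPM were used as deposited, without the scaling of library sizes applied to CPM. The part of this scaling in the difference was not tested. Sensors were low in abundance, with Atf6 at 11.99 and 9.37 TPM, Eif2ak3 at 3.68 and 6.03 TPM and Ern1 at 3.25 and 8.30 TPM in injured and non-injured libraries.

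By day, edgeR called 4 of the 33 genes at day 1 (Hspa5, Manf, Creld2 and Trib3). That day 0.472% of all genes were called higher, and 1.31% of the 8464 genes averaging 10 CPM or more in that day's libraries. At day 4 it called 5 (Calr, Pdia6, P4hb, Sdf2l1 and Creld2), against 1.52% of all genes and 3.87% of the 9596 averaging 10 CPM or more that day. All members called were higher on the injured side, and Creld2 was called on both days. No member was called at day 7, where 0.374% of all genes were called in either direction, although 14 had an unadjusted p under 0.05 (13 higher, 1 lower) and DESeq2 called 3, Calr, Sdf2l1 and Herpud1. None was called at day 14 (0.0594% of all genes), where 0 had an unadjusted p under 0.05 and DESeq2 called 2, Asns and Ern1. The median log2 change of the 15 folding factors was 1.07 at day 1, 1.30 at day 4, 0.95 at day 7 and 0.23 at day 14. That of the 9025 genes averaging 10 CPM or more over all libraries was 0.01, 0.25, 0.53 and -0.01 over the same days. By limma on log2(TPM + 1) the day 7 median turned to -0.12 for the folding factors, against -0.52 for genes at 10 CPM or more. Without the day 7 male pair the day 7 median was 1.02, against 0.73 for genes at 10 CPM or more. Then 9 of the 15 lay above that background median, against 14 with all pairs. Without the day 7 female pair it was 1.02 against 0.35, with 15 above. Without the day 14 male pair the day 14 median of the folding factors was -0.04, against 0.05 for genes at 10 CPM or more. Without the day 14 female pair the median was 0.70, against 0.08 for genes at 10 CPM or more. The day counts rest on single pairs, and leaving out 1 of the 8 pairs gave 0 to 8 genes at day 1 and 0 to 3 at day 4. Leaving out a pair leaves its day with 1 pair. Without either day 1 pair no gene of all tested was called higher at any of the 4 days, so those lost calls say nothing particular to the members. The authors' deposited tables come from a fit that is not described in the sources used here. In them 15 members were higher at an adjusted p under 0.05 at day 1, 12 at day 4, 3 at day 7 and 1 at day 14, and 0 were lower. The share of all genes called in those tables or by DESeq2 is not given here, so neither count singles out the members.

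**Figure D4:**
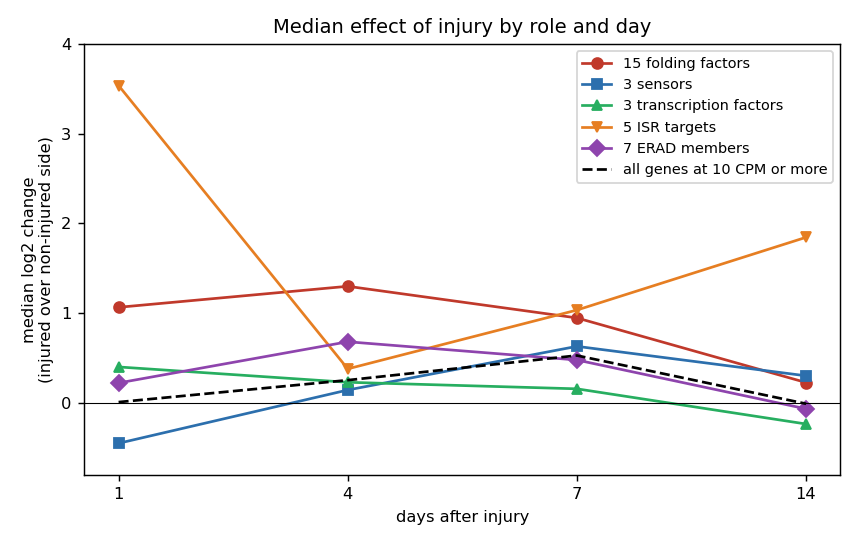
Median log2 change, injured over non-injured, at each day for 15 folding factors, 3 sensors, 3 transcription factors, 5 targets of the integrated stress response (ISR) and 7 ERAD genes, with all genes at 10 CPM or more as a dashed line (days are evenly spaced, values from edgeR). The folding factors lie at 1.07, 1.30, 0.95 and 0.23 over the 4 days, and the ISR targets at 3.54, 0.38, 1.04 and 1.85, the last being the value of Trib3, which had 0 counts in the day 14 female non-injured library.

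Whether the effect of injury itself differed between days was tested in the same fit. No member was called by edgeR for any difference between the 4 days, nor was any other gene (0%), and 6 members had an unadjusted p under 0.05. DESeq2 called 3 members, Creld2, Manf and Sdf2l1, and limma on TPM called 0. For days 4 to 14 against day 1, edgeR called 0 members and 0% of all genes. An unadjusted p under 0.05 was reached by 5 members, each with a smaller effect at the later days, and DESeq2 called 2 members, Creld2 and Manf. Manf had the log2 difference of -1.26 (SE 0.39, adjusted p = 0.536 by edgeR), Creld2 of -1.19 (SE 0.38, adjusted p = 0.554) and Trib3 of -3.53 (SE 0.97, adjusted p = 0.446), all by edgeR. For Calr the same difference was -0.01 (SE 0.31). The mean effect of injury was also compared between females and males, and edgeR called 0 members and 0% of all genes. An unadjusted p under 0.05 was reached by 1 member, Asns, at a log2 difference (female minus male) of 2.61 (SE 0.79, adjusted p = 0.494 by edgeR). DESeq2 and limma called 0 members for this difference.

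Further genes of the pathway came from lists of non-members. Of 42 genes of ER folding, translocation and glycosylation, 21 rose and 0 fell in the mean (50%, against 20.5% of genes at 10 CPM or more called higher), with a median log2 change of 0.65. Among them was Ero1l, the oxidase that recharges disulfide isomerases, at log2 2.05 (SE 0.28, adjusted p = 0.0019 by edgeR). At day 4, Sec61b, a subunit of the translocon, was called at log2 2.47 (adjusted p = 0.0420 by edgeR). Ssr2, a subunit of the translocon-associated complex, was called that day at log2 1.82 (adjusted p = 0.0472 by edgeR). Of 34 tested targets of ATF4 and CHOP, 13 (38.2%) rose and 0 fell, with a median of 0.55. Gdf15, a stress cytokine, averaged 42.7 ± 39.0 CPM in injured and 3.502 ± 4.28 CPM in non-injured libraries (SD, n = 8 each), at log2 3.96 (SE 0.50, adjusted p = 0.0012 by edgeR). The amino acid carriers Slc1a5 and Slc7a11 had log2 changes of 2.46 and 1.99 (adjusted p = 0.0035 and 0.0159 by edgeR), both in the mean. Mthfd2, an enzyme of mitochondrial folate metabolism, was called at day 1 at log2 2.32 (adjusted p = 0.0395 by edgeR). Eif4ebp1, a repressor of cap-dependent translation, was called at day 4 at log2 2.46 (adjusted p = 0.0285 by edgeR). In the remaining lists the share called higher lay near the 20.5% of genes at 10 CPM or more, at 21.4%, 25% and 14.3% in the order given here. Of 14 genes of the eIF2 kinases, eIF2 and its exchange factor, 3 rose, namely the eIF2 subunits Eif2s1, Eif2s2 and Eif2s3x, and 0 fell. Eif2s1 was also called at day 4, at log2 1.87 (adjusted p = 0.0440 by edgeR). Among 12 other sensors and processing factors 3 rose and 0 fell, namely Creb3l1, an ER-bound transcription factor, Bloc1s1, whose transcript is a known substrate of IRE1, and Rtcb, the ligase that rejoins the cut Xbp1 transcript. Of 21 tested ERAD genes outside the members 3 rose, Os9, Vcp and Ubxn4, and 0 fell.

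Markers of the sorted cells and of other cell types moved with the side. The summed level of 8 microglial markers was 7642 to 34507 CPM in injured and 9640 to 59766 CPM in non-injured libraries, and was higher on the injured side in 1 of 8 pairs, with 5 of the 8 called lower and 0 higher in the mean. The 8 monocyte markers summed to 178 to 2018 CPM in injured and 29.1 to 193 CPM in non-injured libraries, higher on the injured side in 8 of 8 pairs. In the mean, 6 of the 8 were called higher and 1 lower. Fn1, which encodes fibronectin, averaged 440 CPM in injured and 24.8 CPM in non-injured libraries. The other 7 summed to 45.1 to 254 CPM in injured and 26.1 to 115 CPM in non-injured libraries, higher on the injured side in 7 of 8 pairs. Neutrophil markers (6 genes, 4 called higher) summed to 2.51 to 187 CPM in injured and 0 to 9.54 CPM in non-injured libraries, higher on the injured side in 8 of 8 pairs. Markers of border-associated macrophages (6 genes, 2 called higher) summed to 71.3 to 2696 CPM in injured and 18.8 to 504 CPM in non-injured libraries, higher on the injured side in 7 of 8 pairs. The 2 called were Ms4a7 and Pf4, while Mrc1, Lyve1 and Cd163 averaged 86.4, 3.42 and 8.38 CPM in injured and 99.8, 8.84 and 14.5 CPM in non-injured libraries and were not called. T and NK cell markers (7 genes, 3 called higher) summed to 4.70 to 20.9 CPM in injured and 0 to 18.7 CPM in non-injured libraries, higher on the injured side in 7 of 8 pairs. Neuronal markers (6 genes, 5 called lower) summed to 6.63 to 108 CPM in injured and 36.8 to 1938 CPM in non-injured libraries, with the top value in the day 4 male non-injured library. Endothelial and mural markers (5 genes, 4 called lower) summed to 36.2 to 135 CPM in injured and 101 to 598 CPM in non-injured libraries, higher on the injured side in 0 of 8 pairs. Astrocyte markers (5 genes, Slc1a3 called lower) and oligodendrocyte markers (5 genes, Mbp called lower) were higher in sum on the injured side in 3 and 2 of 8 pairs. Markers of B cells and of plasma cells, which are rich in these chaperones, summed to 47.7 to 409 CPM in injured and 64.9 to 607 CPM in non-injured libraries (9 genes, higher on the injured side in 1 of 8 pairs). Ighm, the heavy chain of IgM, made up most of this sum and was called lower, while the light chain gene Igkc was called higher, averaging 61.2 CPM in injured and 5.56 CPM in non-injured libraries. Without Ighm the sum was 7.16 to 263 CPM in injured and 4.38 to 108 CPM in non-injured libraries, higher on the injured side in 6 of 8 pairs. The joining chain gene Jchain averaged 14.5 CPM in injured and 3.17 CPM in non-injured libraries and was not called. The plasma cell gene Mzb1 did not exceed 3.40 CPM in injured and 0.0874 CPM in non-injured libraries and was at 0 in 3 of 8 injured and 7 of 8 non-injured ones. Early response genes that tissue dissociation can raise (6 genes) summed to 1161 to 7070 CPM in injured and 1099 to 7312 CPM in non-injured libraries, higher on the injured side in 3 of 8 pairs. The part of these cell types and genes in the rise of the folding factors was not tested. Without the day 4 and day 7 male pairs, whose non-injured libraries held the highest levels of neuronal markers, 12 of the 14 members and Asns were called higher in the mean, and without the day 14 female pair all 14 and Canx were.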

How the data were processed

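The authors made libraries with SMART-Seq v4 and Nextera XT, per the labels' protocols, which keep no strand, and Salmon 1.0.0 and DESeq2 1.26.0 are named in the submitters' processing notes. The genome build is not given in the sources used here, and annotation came from GENCODE M21 (GRCm38), in which 55144 of 55385 gene identifiers were found. The authors' expected counts, estimated per gene and not normalized, were used as deposited. The authors' TPM values were used for levels between genes. The authors' deposited comparison tables give, for each day, an adjusted p-value and a log2 fold change of the injured over the non-injured side.

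The 2 columns of each of the 16 groups were summed and rounded. Replicate numbers did not pair the columns across sides, with correlations of -0.0190 to 0.0663 between their deviations. Tests used edgeR 4.0.16 in R 4.3.3 (quasi-likelihood, TMM factors, filterByExpr at a minimum count of 10), with 8 pair means, 4 day effects and 4 residual degrees of freedom (3 with a sex difference), and Benjamini-Hochberg adjustment over 28597 genes. A standard error (SE) is the log2 change divided by the square root of F. CPM use TMM-scaled library sizes. Alternatives were median-ratio factors, DESeq2 1.42.0, no count filter, limma 3.58.1 on log2(TPM + 1), no pair block, the 32 columns as separate samples with and without a replicate block, each pair left out, and the day 4 and day 7 male pairs left out. The procedure was tested on simulated data with 1 spread for all genes and 1 size of change, equal at all days, in well-counted genes. That test does not cover smaller changes or genes with a wider spread. For the 10 members with the smallest p in the mean, and for Hyou1, levels are printed as ranges over libraries. Values in single libraries are printed for members called at a day, up to 6 at each day. Of the pathway lists, up to 4 called genes in each direction by size are named. Others (Canx, Atf6, Ern1, Eif2ak3, Xbp1, Atf4, Ddit3, Chac1, Asns, Herpud1, Edem1 and the smaller pathway lists' called genes) were chosen after their values were seen. The members and lists were chosen with earlier results of these data known. Figures were drawn with matplotlib 3.10.9.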

Additional observations from a re-analysis of the deposited data

Results flagged for a closer look

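Each member was examined among the 8 injured and among the 8 non-injured libraries, 66 groups in all, for a highest or lowest library set apart from the rest by more than Dixon's 95% critical value on the log2(CPM + 1) scale. Chance flags about 1 in 20 such groups, and 6 were flagged. On CPM without logs 11 would be. In the day 14 female pair these were Canx, with 8699 CPM in the non-injured library, Dnajb9, with 255.5 CPM in the non-injured library, and Ern1, at 0 CPM in the injured library. In the day 14 male pair they were Hsp90b1, with 399.6 CPM in the injured library, and Dnajc3, with 48.65 CPM in the non-injured library, each the lowest of its side. Xbp1 had 612.8 CPM in the day 1 female non-injured library, the highest of its side.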

How the results depend on the processing

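Counts of members called are given against 4 at day 1, 5 at day 4, 0 at days 7 and 14, 14 in the mean over days and 0 for differences between days or sexes. With the 32 columns as separate samples 32 were called at day 1, 29 at days 4, 7 and 14 and in the mean, 32 for any difference between days, 25 for days 4 to 14 against day 1 and 19 for the sex difference, both with and without a replicate block. This spread is little more than counting noise. The labels' numbers did not pair the samples. DESeq2 called 15 at day 1, 10 at day 4, 3 at day 7 and 2 at day 14. It called 3 for any difference between days and 2 for days 4 to 14 against day 1. The share of all genes called by DESeq2 or with 32 columns is not given here, so these counts do not single out the members. Limma on log2(TPM + 1) called 2 at day 1, 0 at day 4 and 6 in the mean (5 higher, 1 lower), and there 23.4% of all called genes were higher, against 49.4% in the edgeR fit. The fit without a pair block called 0 at days 1 and 4 and 4 in the mean. Without a count filter 1 was called at day 1 and 2 at day 4, and median-ratio factors gave 3 at day 4. Without the day 4 and day 7 male pairs 0 were called at day 4. Leaving out 1 pair gave 0 to 8 at day 1, 0 to 3 at day 4 and 0 to 2 at day 7, and 11 to 16 in the mean. At day 1 the count was 8 without the day 4 female pair, and 1 without either day 7 pair. At day 4 it was 1 without either day 7 pair, 2 without either day 14 pair and 3 without the day 4 female pair, and the 2 calls at day 7 came without the day 4 male pair. The cause of these shifts was not tested. No member called in the mean, at day 1 or at day 4 changed direction in that comparison under any of 16 alternatives. Of those not called, some changed sign in at least 1 alternative, namely 7 of 29 at day 1, 11 of 28 at day 4, 26 of 33 at day 7, 20 of 33 at day 14 and 9 of 19 in the mean. The 9 were Dnajb9, Ern1, Atf6, Eif2ak3, Xbp1, Atf4, Ppp1r15a, Sesn2 and Sel1l. By limma on log2(TPM + 1) 23 members changed sign at day 7, and the mean over days had a median of -0.03 over the 18 members that are not folding factors.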
